A study of Homo sapiens with 8 samples.

Results

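The DNA replication and S-phase genes are 49 human genes that copy the genome or prepare the cell for copying it, followed here in neuroblastoma (NB) cells exposed to media conditioned by embryonic ganglia. They were found by symbol among the 60676 rows of a table of counts per gene, and all 49 were matched. By role, 10 license replication origins, 6 activate the helicase, 6 form the sliding clamp and its loader, 8 belong to the polymerases and primase, 5 mature Okazaki fragments or bind single strands, 5 supply nucleotides or remove uracil, 3 assemble or maintain chromatin and 6 are G1/S cyclins, E2F factors and guards of the fork. Of the 49, 48 passed the filter on low counts. The remaining member, E2F2, an activating E2F factor, had 0 counts in all 8 libraries, and a level of up to 3 counts, which is 0.199 to 0.378 CPM (counts scaled to a common library size) depending on the library, could not be told from 0.

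IGR-N91, a human NB cell line for which the labels name no genetic change, was grown as aggregates in hanging drops, and RNA was sequenced from 2 libraries per group. The control group was kept in control medium. The other groups received medium conditioned by sympathetic ganglia of chick embryos at embryonic day 8 (E8-cSGcm), by dorsal root ganglia of chick embryos of the same day (E8-cDRGcm) or by sympathetic ganglia of mouse embryos (E15.5-mSGcm, named for the embryonic day). Exposure is given as 20 h in the protocol and as 24 h in the series design. The groups share 1 cell line, each medium came from ganglia pooled over embryos, and the mouse and chick sympathetic media differ in species and stage together, which cannot be told apart. No label says that the libraries of a group came from separate cultures, so the tests measure the spread between these libraries, which may be technical.

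Replication starts when the origin recognition complex, CDC6 and CDT1 load the ring of MCM2 to MCM7 onto DNA in G1. CDC45 and the GINS complex turn that ring into the moving helicase at the start of S phase, and polymerases held by the PCNA clamp copy the strands. Many of these genes are transcribed late in G1 by E2F factors, which cyclin E and its kinase release from the RB protein, and NB cells with high MYCN are known for rapid proliferation.

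E2F factors bind short GC-rich sites close to the start of many replication genes. RefSeq windows of 300 bases (GRCh38.p14, 250 before and 50 after the gene's start) were matched for 42 members. The windows of MCM4, MCM5, GINS4, POLD3, RPA2, RPA3 and CCNE2 were not matched. The letters TTTCCCGC or TTTGGCGC, on either strand, stood in 20 of the 42 windows (47.6%) and in 631 of all 27305 windows (2.31%). CCAAT, on either strand, stood in 25 of the 42 (59.5%) and in 35.7% of all windows. Among members that fell against control in some medium, 5 of 12 windows held the E2F letters (41.7%), against 14 of the 29 windows of tested members that were not called (48.3%). Of the members that fell in E8-cDRGcm, 3 of 3 windows held them, and of those that fell in E15.5-mSGcm 2 of 9 did (22.2%). A match is a description of the letters and not a bound site. The windows of the 3 fallen members with the largest changes and a match are printed because POLA1 and MCM3 fell in the chick dorsal root medium and CDT1 in the mouse medium. They read 5′ to 3′ on the gene's strand, with the E2F letters in capitals.
POLA1 (chrX:24693668-24693967, plus strand, match from position -137): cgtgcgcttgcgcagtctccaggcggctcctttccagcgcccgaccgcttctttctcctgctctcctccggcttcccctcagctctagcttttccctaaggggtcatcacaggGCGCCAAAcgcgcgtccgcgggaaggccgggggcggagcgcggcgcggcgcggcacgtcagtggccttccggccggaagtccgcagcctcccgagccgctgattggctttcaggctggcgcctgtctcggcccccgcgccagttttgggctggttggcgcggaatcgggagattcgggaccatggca
MCM3 (chr6:52284693-52284992, minus strand, match from position -174): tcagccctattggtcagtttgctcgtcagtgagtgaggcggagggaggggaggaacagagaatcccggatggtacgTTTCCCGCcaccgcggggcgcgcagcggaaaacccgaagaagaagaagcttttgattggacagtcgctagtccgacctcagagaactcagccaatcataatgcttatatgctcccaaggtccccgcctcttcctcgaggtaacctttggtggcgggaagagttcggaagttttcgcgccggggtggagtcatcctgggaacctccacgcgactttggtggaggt
CDT1 (chr16:88803539-88803838, plus strand, match from position -35): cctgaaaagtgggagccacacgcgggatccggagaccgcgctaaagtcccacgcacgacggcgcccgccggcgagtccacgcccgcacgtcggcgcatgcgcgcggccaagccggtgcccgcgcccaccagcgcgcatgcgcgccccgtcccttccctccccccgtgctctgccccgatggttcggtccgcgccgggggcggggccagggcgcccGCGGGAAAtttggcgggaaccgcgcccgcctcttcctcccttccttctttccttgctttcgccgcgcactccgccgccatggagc
Positions are counted from the gene's start, with the last base before it as -1.

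Totals per library ran from 7930765 to 15060744 counts, and the E15.5-mSGcm libraries had the lowest, 7930765 and 8937397. Counts of mitochondrial genes made up 7.46% and 7.03% of the E15.5-mSGcm libraries and 4.65% to 6.22% of the others. Of 10 noradrenergic NB markers, 9 were tested and CHGA was at 0 in every library, and MYCN, HAND2, GATA3, TH and DBH were all counted. Their summed level was 5982 and 6076 CPM in control medium, 4433 and 4706 in E8-cSGcm, 3555 and 3660 in E8-cDRGcm, and 3575 and 3745 in E15.5-mSGcm. MYCN, at 4610 and 4679 CPM in control, made up most of that sum. In these media in turn, 2, 6 and 4 of the 9 fell, beside 3.86%, 10.9% and 7.27% of all tested genes. In E15.5-mSGcm 2 of the 9 lay above control and 7 below, and none was called higher. DBH was at 48.4 and 55.2 CPM there against 37.85 and 37.15 in control, and TH had 9 counts in each library there. The part of these markers in the results on replication genes was not tested. Of 7 markers of Schwann cells and satellite glia, SOX10, FOXD3 and FABP7 were at 0 in every library, and the list summed to 1.12 to 4.10 CPM. Of the 2 tested, ERBB3, a neuregulin receptor, passed the test as higher in E8-cDRGcm and E15.5-mSGcm, at log2 fold changes of 1.76 and 1.72, on 12 and 9 counts in control, 26 and 43 in E8-cDRGcm and 16 and 25 in E15.5-mSGcm.

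Compared per kilobase of exonic length (RPKM), the members spanned a wide range of levels in control medium. PCNA, the sliding clamp, was highest at 115 RPKM, followed by TYMS, which makes thymidylate, at 69.1, RRM1, the large subunit of ribonucleotide reductase, at 60.4, and MCM2 at 59.3. At the low end stood CCNE2 (cyclin E2) at 2.76 RPKM, PRIM2, the large primase subunit, at 2.62, and POLA2, a regulatory subunit of polymerase alpha, at 0.952. By this measure the subunits of 1 complex differed. Within the MCM ring the mean level ran from 14.5 RPKM for MCM5 to 59.3 for MCM2, and within GINS from 3.35 for GINS3 to 17.9 for GINS2. The length merges every annotated exon of a gene, 7268 bases for MCM5 and 4715 for MCM2. It can exceed that of the RNA made, and its part in these differences was not tested. Counts of RRM2 could be split with RRM2P3, a pseudogene copy whose row held 7.28% as many counts as RRM2. For the other members with a pseudogene row this share was at most 3.09%.

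In E8-cSGcm, no replication gene passed the test against control medium, which called a gene where its adjusted p lay under 0.05 and its change reached 1.5-fold (edgeR quasi-likelihood test, Benjamini-Hochberg over 16680 genes). By the same rule, 4.73% of all tested genes were called higher and 3.86% lower, and 0 of 48 members either way. The member log2 fold changes ran from -0.30 to 0.48, with a median of 0.09 beside 0.01 for all tested genes, and 36 of the 48 lay above 0. At an adjusted p under 0.05 without the fold criterion, 14 of 48 members were higher and 4 lower. Of 16680 tested genes, 2679 were higher and 2534 lower by that criterion. At an unadjusted p under 0.05, 18 members were higher and 4 lower, with no count over all genes. DESeq2 called 0 members, beside 851 of 32570 genes called either way. CHAF1B, the middle subunit of the chromatin assembly factor CAF-1, had the highest value, 0.48 ± 0.099 (SE; adjusted p = 0.000216, edgeR), and RPA2, of the single-strand binding complex, the lowest, -0.30 ± 0.074 (SE; adjusted p = 0.00164, edgeR).

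In E8-cDRGcm, 4 of the 48 genes fell against control medium and 0 rose, beside 10.9% of all tested genes called lower and 9.81% called higher. They were GINS4 of the helicase activator, MCM3 of the MCM ring, POLA1, the catalytic subunit of polymerase alpha, and POLE2, an accessory subunit of polymerase epsilon. The median was -0.24 beside 0.01 for all tested genes, with 35 of 48 members below 0 and a range of -1.10 to 0.50. With the fold criterion, the share of members called lower, 8.33%, was thus no higher than that of all genes. At an adjusted p under 0.05 alone, 29 of 48 members were lower and 7 higher, beside 4118 and 4143 of 16680 tested genes. By that criterion the share of members lower was above that of all genes, and the share higher was below it. At an unadjusted p under 0.05, 30 members were lower and 7 higher, with no count over all genes. DESeq2 called 5 members lower and 0 higher, beside 2597 of 32570 genes called either way, 1230 of them higher. With every library thinned to 7930765 counts, 7 members were called lower, beside 3030 of 15379 genes called either way, 1419 of them higher. Without control replicate 2, GINS2, POLA2, MCM4, GINS3 and CDC45 came to -0.70, -0.64, -0.59, -0.59 and -0.59, past the fold criterion. Without E8-cDRGcm replicate 1, GINS2, GINS3 and MCM4 did so at -0.64, -0.62 and -0.61.

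In E15.5-mSGcm, 12 of the 48 genes fell and 0 rose, beside 7.27% of all tested genes called lower and 6.65% called higher. They were CHAF1B, CDC45, RRM2, CCNE2, CCNE1, RFC5, GINS4, UNG, TK1, CDT1, UHRF1 and POLD3, and they covered 7 of the 8 roles and made up 25.0% of the tested members. The median was -0.36 beside -0.02 for all tested genes, 43 of 48 members lay below 0, and the range was -0.95 to 0.37. Without the fold criterion, 31 of 48 members were lower and 3 higher at an adjusted p under 0.05. Of 16680 tested genes, 3330 were lower and 2975 higher by that criterion. At an unadjusted p under 0.05, 33 members were lower and 3 higher, with no count over all genes. DESeq2 called 12 members lower and 0 higher, beside 1583 of 32570 genes called either way, 704 of them higher. These libraries also had the lowest totals and the highest mitochondrial share (above). With every library thinned to 7930765 counts, 11 members fell, beside 2086 of 15379 genes called either way, 964 of them higher. The part of mitochondrial share in the result was not tested, and in bulk RNA fewer cells in S phase and less replication RNA per cell cannot be told apart.

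Markers of other cells were read beside these results. Of 7 fibroblast genes, all tested, 4 were called higher and 1 lower (COL1A1) in E15.5-mSGcm, beside 6.65% and 7.27% of all tested genes. In E8-cDRGcm 1 was called lower, beside 10.9%. Their summed level was 417 and 428 CPM in control, 448 and 435 in E8-cSGcm, 464 and 448 in E8-cDRGcm, and 477 and 487 in E15.5-mSGcm, with none of the 7 at 0. Of 6 sensory neuron genes, 3 were tested, SCN10A was at 0 in every library, and the sums were 418 to 457 CPM in control and chick media and 254 and 279 in E15.5-mSGcm. RET, at 427 and 400.3 CPM in control, made up nearly all of that sum, and it was called lower in E15.5-mSGcm (log2 fold change of -0.83). The sodium channel gene SCN9A was called higher in E8-cDRGcm (1.47) and E15.5-mSGcm (1.25). The 6 macrophage and leukocyte genes summed to at most 2.05 CPM in any library, none passed the filter and AIF1 was at 0. The part of these markers in the results was not tested.

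**Figure D1:**
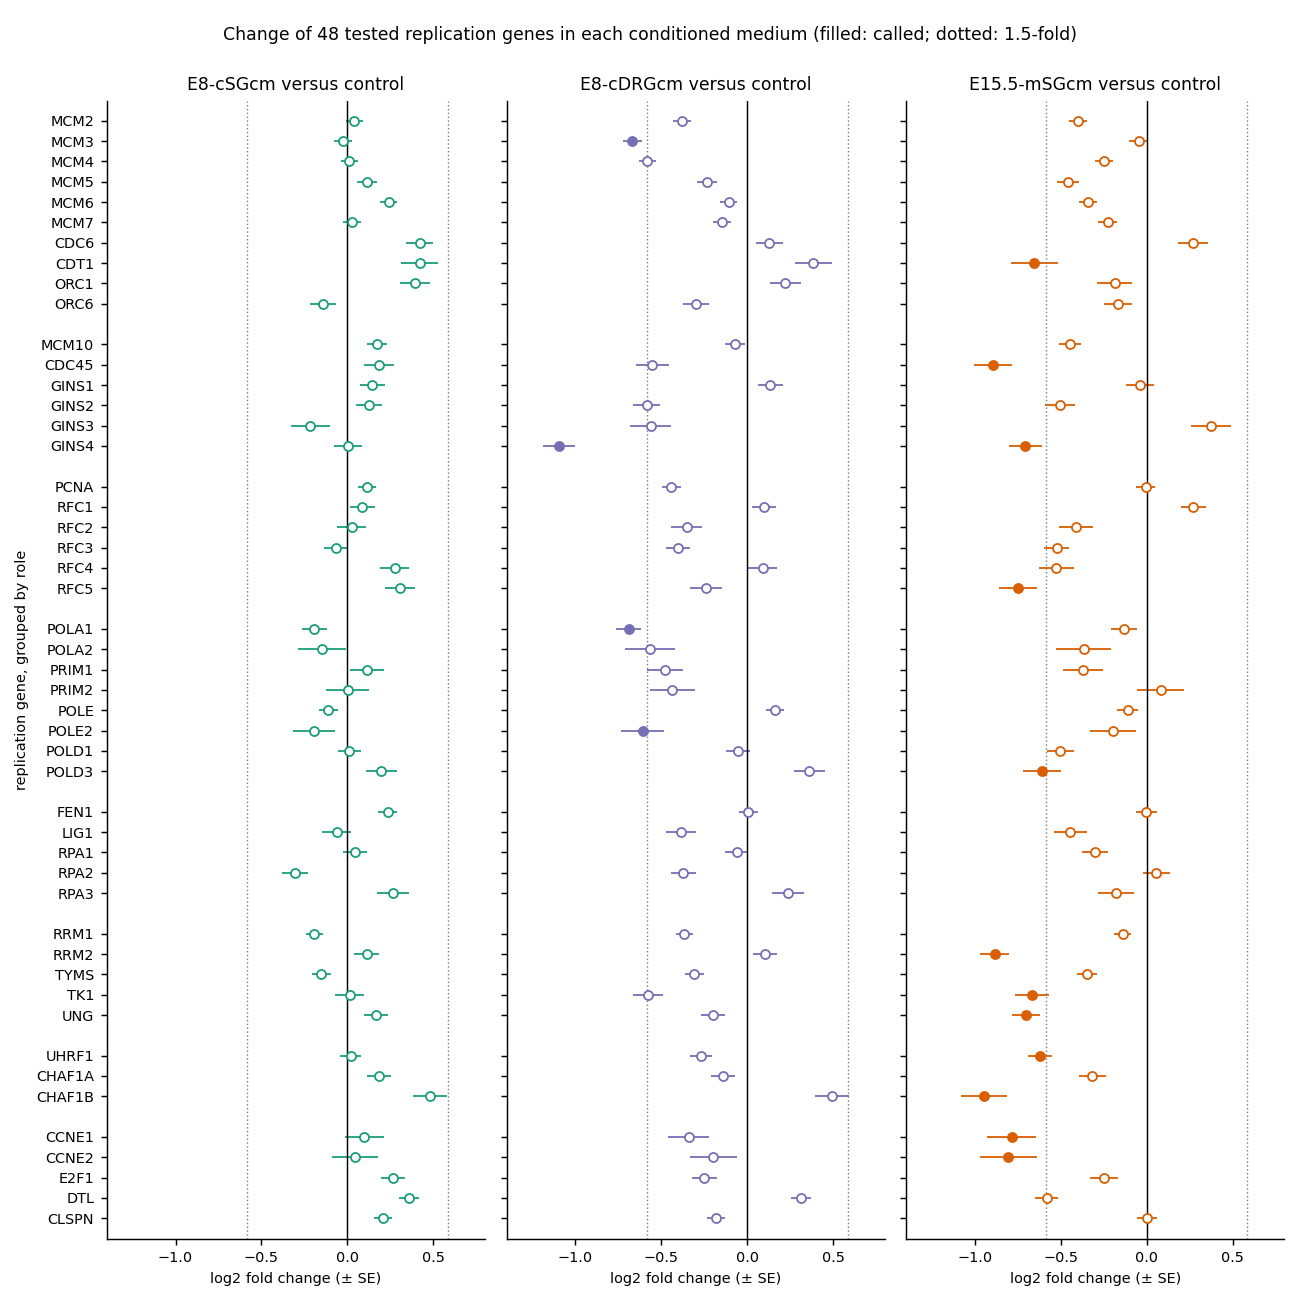
Log2 fold change against control medium, with its standard error (SE), of the 48 tested replication genes in each conditioned medium. Genes are grouped by role from origin licensing at the top to G1/S cyclins and fork guards at the bottom, and filled points passed the test. The E8-cSGcm points lie between -0.30 and 0.48 with none filled, 4 points are filled in E8-cDRGcm and 12 in E15.5-mSGcm, all of them to the left of 0.

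Origin licensing genes moved unevenly. MCM3 was at 173 and 167 CPM in control medium, 163 and 171 in E8-cSGcm, 111 and 103 in E8-cDRGcm, and 163 and 166 in E15.5-mSGcm. The E8-cDRGcm libraries lay below all others, and the other 3 groups overlapped or lay close together. MCM3 fell in E8-cDRGcm by a log2 change of -0.67 ± 0.055 (SE; adjusted p = 7.16e-13, edgeR) and had -0.05 ± 0.055 (SE; adjusted p = 0.539, edgeR) in E15.5-mSGcm. MCM4, the member of this role with the most counts, was at 431 and 423 CPM in control medium, 409 and 452 in E8-cSGcm, 291 and 280.1 in E8-cDRGcm, and 367 and 351 in E15.5-mSGcm. Its E8-cDRGcm libraries were the lowest, and at -0.58 ± 0.051 (SE; adjusted p = 3.27e-12, edgeR) it stayed just under the fold criterion. MCM2, MCM5, MCM6 and MCM7 passed no test against control, with log2 changes of -0.38, -0.23, -0.11 and -0.15 in E8-cDRGcm and of -0.40, -0.46, -0.34 and -0.23 in E15.5-mSGcm. In E8-cDRGcm the RNAs of the 6 subunits of the ring thus spanned -0.67 to -0.11. The proteins assemble in equal numbers, and their levels were not measured in these libraries.

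CDT1, the loader that is degraded once S phase begins, was at 16.3 and 19.9 CPM in control medium, 23.9 and 24.8 in E8-cSGcm, 24.5 and 23.1 in E8-cDRGcm, and 13.2 and 10.1 in E15.5-mSGcm. Its E15.5-mSGcm libraries lay below control and the chick media lay above it, with no overlap. CDT1 fell in E15.5-mSGcm, -0.66 ± 0.14 (SE; adjusted p = 0.000223, edgeR), and had 0.42 in E8-cSGcm and 0.38 in E8-cDRGcm, both under the fold criterion. Without control replicate 2 its change in E15.5-mSGcm was -0.50, and without E15.5-mSGcm replicate 2 it was -0.47, under the fold criterion. It was -0.53 with every library thinned to 7930765 counts and -0.40 after each library was corrected for GC content and length. CDC6, which loads the ring with CDT1, had 0.42 ± 0.078 (SE; adjusted p = 5.42e-05, edgeR) in E8-cSGcm and 0.27 in E15.5-mSGcm. ORC1 had 0.39, 0.22 and -0.19 in E8-cSGcm, E8-cDRGcm and E15.5-mSGcm, and ORC6 had -0.14, -0.30 and -0.17, none of them called.

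Among the helicase activation genes, GINS4 showed the largest change of any member in E8-cDRGcm. It was at 46.6 and 39.7 CPM in control medium, 43.2 and 43.0 in E8-cSGcm, 18.8 and 21.5 in E8-cDRGcm, and 26.0 and 26.6 in E15.5-mSGcm. The E8-cDRGcm libraries were the lowest, the E15.5-mSGcm libraries came next, and neither overlapped control or E8-cSGcm, which overlapped each other. GINS4 fell 2.14-fold in E8-cDRGcm, -1.10 ± 0.093 (SE; adjusted p = 1.65e-12, edgeR), and 1.63-fold in E15.5-mSGcm, -0.71 ± 0.098 (SE; adjusted p = 2.59e-07, edgeR). It had 0.00 in E8-cSGcm. No other GINS subunit was called against control in any medium. GINS3 was at 17.4 and 16.8 CPM in control medium, 13.6 and 15.8 in E8-cSGcm, 12.0 and 11.1 in E8-cDRGcm, and 21.4 and 22.9 in E15.5-mSGcm, highest in E15.5-mSGcm and lowest in E8-cDRGcm. Against control it had -0.56 ± 0.12 (SE; adjusted p = 0.000155, edgeR) in E8-cDRGcm and 0.37 ± 0.12 (SE; adjusted p = 0.01, edgeR) in E15.5-mSGcm, both under the fold criterion. GINS2 had -0.58 and -0.51 in these media, and GINS1 0.14 and -0.04. The RNAs of the 4 GINS subunits thus lay on both sides of 0 in E15.5-mSGcm.

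CDC45, which joins the MCM ring with GINS, was at 39.1 and 37.2 CPM in control medium, 38.7 and 47.5 in E8-cSGcm, 25.2 and 26.7 in E8-cDRGcm, and 22.6 and 18.5 in E15.5-mSGcm. Both E8-cDRGcm and both E15.5-mSGcm libraries lay below every control library. CDC45 fell 1.86-fold in E15.5-mSGcm, -0.90 ± 0.11 (SE; adjusted p = 2.90e-08, edgeR), and had -0.55 ± 0.096 (SE; adjusted p = 8.43e-06, edgeR) in E8-cDRGcm, just under the fold criterion. MCM10, a scaffold for helicase activation and the member of this role with the most counts, was at 95.7 and 93.1 CPM in control medium, 103 and 109.6 in E8-cSGcm, 90.6 and 89.0 in E8-cDRGcm, and 70.0 and 68.7 in E15.5-mSGcm. Its E15.5-mSGcm libraries were the lowest, and at -0.45 ± 0.065 (SE; adjusted p = 6.51e-07, edgeR) it was not called.

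**Figure D2:**
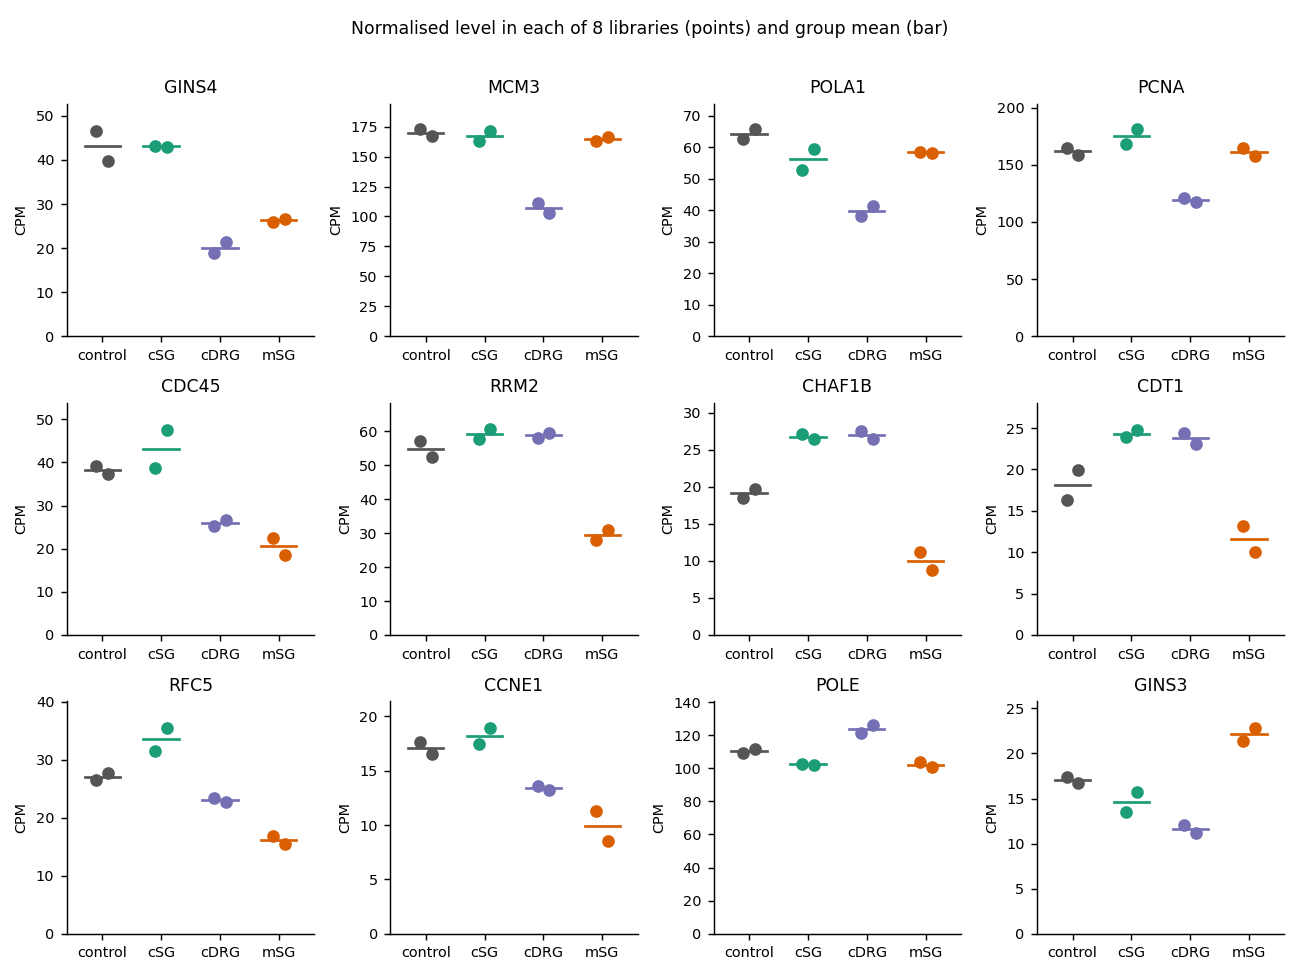
Normalised level (CPM, linear axis from 0) of 12 replication genes in each of the 8 libraries, with the group mean as a bar. GINS4, MCM3, POLA1 and PCNA are lowest in the E8-cDRGcm libraries, CDC45, RRM2, CHAF1B, CDT1, RFC5 and CCNE1 are lowest in the E15.5-mSGcm libraries, and GINS3 is highest there.

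The clamp and its loader were split by subunit. PCNA was at 165 and 159 CPM in control medium, 168 and 182 in E8-cSGcm, 120.5 and 118 in E8-cDRGcm, and 164 and 158 in E15.5-mSGcm. The E8-cDRGcm libraries stood below all others, and control and E15.5-mSGcm overlapped. PCNA had -0.44 ± 0.055 (SE; adjusted p = 1.49e-08, edgeR) in E8-cDRGcm, under the fold criterion, and -0.01 in E15.5-mSGcm. RFC5, a small subunit of the loader, was at 26.5 and 27.7 CPM in control medium, 31.6 and 35.4 in E8-cSGcm, 23.3 and 22.6 in E8-cDRGcm, and 16.8 and 15.54 in E15.5-mSGcm. It fell 1.68-fold in E15.5-mSGcm, -0.75 ± 0.11 (SE; adjusted p = 1.05e-06, edgeR), with no overlap between these libraries and any other. RFC2, RFC3 and RFC4 had -0.41, -0.53 and -0.53 in E15.5-mSGcm, and RFC1, the large subunit, had 0.27, none of them called.

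Of the polymerase and primase genes, POLA1 and POLE2 fell in E8-cDRGcm and POLD3 fell in E15.5-mSGcm. POLA1 was at 62.6 and 65.8 CPM in control medium, 52.9 and 59.4 in E8-cSGcm, 38.1 and 41.5 in E8-cDRGcm, and 58.7 and 58.3 in E15.5-mSGcm. Its E8-cDRGcm libraries lay below all others, with a log2 change of -0.69 ± 0.074 (SE; adjusted p = 5.84e-10, edgeR), and in E15.5-mSGcm it had -0.14. POLE2 had -0.61 ± 0.13 (SE; adjusted p = 0.000106, edgeR) in E8-cDRGcm, and -0.56, under the fold criterion, with every library thinned to 7930765 counts. The primase subunits PRIM1 and PRIM2 and the polymerase alpha subunit POLA2 had -0.48, -0.44 and -0.57 in E8-cDRGcm and were not called.

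POLE, the catalytic subunit of the leading strand polymerase and the member of this role with the most counts, was at 109 and 112 CPM in control medium, 102 and 102 in E8-cSGcm, 121 and 126 in E8-cDRGcm, and 104 and 101 in E15.5-mSGcm. Its E8-cDRGcm libraries were the highest, at 0.16 ± 0.055 (SE; adjusted p = 0.0135, edgeR), which was not called. POLD3, a subunit of the lagging strand polymerase delta, was at 32.3 and 29.9 CPM in control medium, 31.5 and 39.4 in E8-cSGcm, 41.1 and 38.8 in E8-cDRGcm, and 20.0 and 20.6 in E15.5-mSGcm, with the E15.5-mSGcm libraries below all others. It fell in E15.5-mSGcm, -0.61 ± 0.11 (SE; adjusted p = 2.75e-05, edgeR), and had 0.36 in E8-cDRGcm, under the fold criterion. Without control replicate 1 its change in E15.5-mSGcm was -0.57 and was not called. POLD1, the catalytic subunit of polymerase delta, had -0.51 in E15.5-mSGcm and -0.05 in E8-cDRGcm, neither called.

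No gene of Okazaki fragment maturation or single-strand binding passed the test against control in any medium. FEN1, the flap endonuclease and the member of this role with the most counts, was at 98.3 and 98.6 CPM in control medium, 112 and 119 in E8-cSGcm, 97.8 and 100.1 in E8-cDRGcm, and 98.5 and 97.9 in E15.5-mSGcm. The E8-cSGcm libraries were the highest, at 0.24 ± 0.056 (SE; adjusted p = 0.0013, edgeR), and the other 6 overlapped. DNA ligase LIG1 had -0.39 in E8-cDRGcm and -0.45 in E15.5-mSGcm. The 3 subunits of the single-strand binding complex RPA had values of -0.06, -0.37 and 0.24 (RPA1, RPA2 and RPA3) in E8-cDRGcm and of -0.30, 0.05 and -0.18 in E15.5-mSGcm.

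Of the 5 genes of nucleotide synthesis and uracil removal, 3 fell in E15.5-mSGcm and none was called in E8-cDRGcm or E8-cSGcm. RRM2, the subunit of ribonucleotide reductase made in S phase, was at 57.2 and 52.4 CPM in control medium, 57.6 and 60.6 in E8-cSGcm, 58.0 and 59.5 in E8-cDRGcm, and 28.1 and 31.0 in E15.5-mSGcm. The E15.5-mSGcm libraries lay well below the other 6. The chick media overlapped each other and lay above both control libraries. RRM2 fell 1.85-fold in E15.5-mSGcm, -0.89 ± 0.086 (SE; adjusted p = 9.58e-11, edgeR), and had 0.10 in E8-cDRGcm. Its partner RRM1, the member of this role with the most counts, was at 258 and 254 CPM in control medium, 218 and 229 in E8-cSGcm, 198 and 198 in E8-cDRGcm, and 237 and 226 in E15.5-mSGcm, lowest in E8-cDRGcm and uncalled in every medium, with -0.37 ± 0.050 (SE; adjusted p = 1.03e-07, edgeR) in E8-cDRGcm and -0.14 in E15.5-mSGcm. The thymidine kinase TK1 fell in E15.5-mSGcm, -0.67 ± 0.098 (SE; adjusted p = 7.40e-07, edgeR), as did the uracil glycosylase UNG, -0.70 ± 0.082 (SE; adjusted p = 7.48e-09, edgeR). TYMS had -0.31 in E8-cDRGcm and -0.35 in E15.5-mSGcm. After the libraries were corrected for GC content and length, an alternative added once the data had been seen, TK1 had -0.47 in E15.5-mSGcm and was no longer called.

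The chromatin genes gave the largest change in E15.5-mSGcm. CHAF1B was at 18.5 and 19.7 CPM in control medium, 27.1 and 26.5 in E8-cSGcm, 27.6 and 26.4 in E8-cDRGcm, and 11.2 and 8.80 in E15.5-mSGcm. The E15.5-mSGcm libraries lay below control, and all 4 libraries of the chick media lay above it. CHAF1B fell 1.93-fold in E15.5-mSGcm, -0.95 ± 0.13 (SE; adjusted p = 3.46e-07, edgeR), and had 0.50 ± 0.099 (SE; adjusted p = 6.37e-05, edgeR) in E8-cDRGcm, under the fold criterion. Its partner in CAF-1, CHAF1A, had -0.32 in E15.5-mSGcm and was not called. UHRF1, which recruits the maintenance methyltransferase to newly copied DNA and has the most counts of this role, was at 77.5 and 79.6 CPM in control medium, 78.6 and 80.7 in E8-cSGcm, 65.4 and 65.0 in E8-cDRGcm, and 49.7 and 52.4 in E15.5-mSGcm. It fell in E15.5-mSGcm, -0.62 ± 0.070 (SE; adjusted p = 3.88e-09, edgeR), and had -0.27 in E8-cDRGcm. After that correction UHRF1 had -0.52 in E15.5-mSGcm and was no longer called.

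Both E-type cyclins, which drive entry into S phase with CDK2, fell in E15.5-mSGcm. CCNE1 was at 17.6 and 16.5 CPM in control medium, 17.5 and 18.9 in E8-cSGcm, 13.6 and 13.3 in E8-cDRGcm, and 11.3 and 8.57 in E15.5-mSGcm. The E15.5-mSGcm libraries were the lowest, the E8-cDRGcm libraries came next, and control and E8-cSGcm overlapped. CCNE1 fell 1.73-fold in E15.5-mSGcm, -0.79 ± 0.14 (SE; adjusted p = 2.38e-05, edgeR). CCNE2 was at 13.5 and 10.7 CPM in control medium, 12.3 and 12.6 in E8-cSGcm, 10.2 and 10.8 in E8-cDRGcm, and 7.05 and 6.74 in E15.5-mSGcm, with the E15.5-mSGcm libraries below all others, and fell 1.75-fold, -0.81 ± 0.17 (SE; adjusted p = 0.000179, edgeR). E2F1 had 0.27 in E8-cSGcm and -0.25 in both other media, none called. DTL, which targets CDT1 for degradation, had -0.58 ± 0.067 (SE; adjusted p = 5.31e-09, edgeR) in E15.5-mSGcm, just under the fold criterion, and was called lower when control replicate 2 (-0.63), either E8-cSGcm library (-0.59), E8-cDRGcm replicate 2 (-0.59) or E15.5-mSGcm replicate 1 (-0.65) was left out. CLSPN, which passes the signal of stalled forks to the checkpoint and has the most counts of this role, was at 142 and 141 CPM in control medium, 162 and 165 in E8-cSGcm, 129.5 and 119.6 in E8-cDRGcm, and 138 and 144 in E15.5-mSGcm. Control and E15.5-mSGcm overlapped for CLSPN, and the chick media lay on either side, at 0.21 in E8-cSGcm and -0.18 in E8-cDRGcm, neither called.

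**Figure D3:**
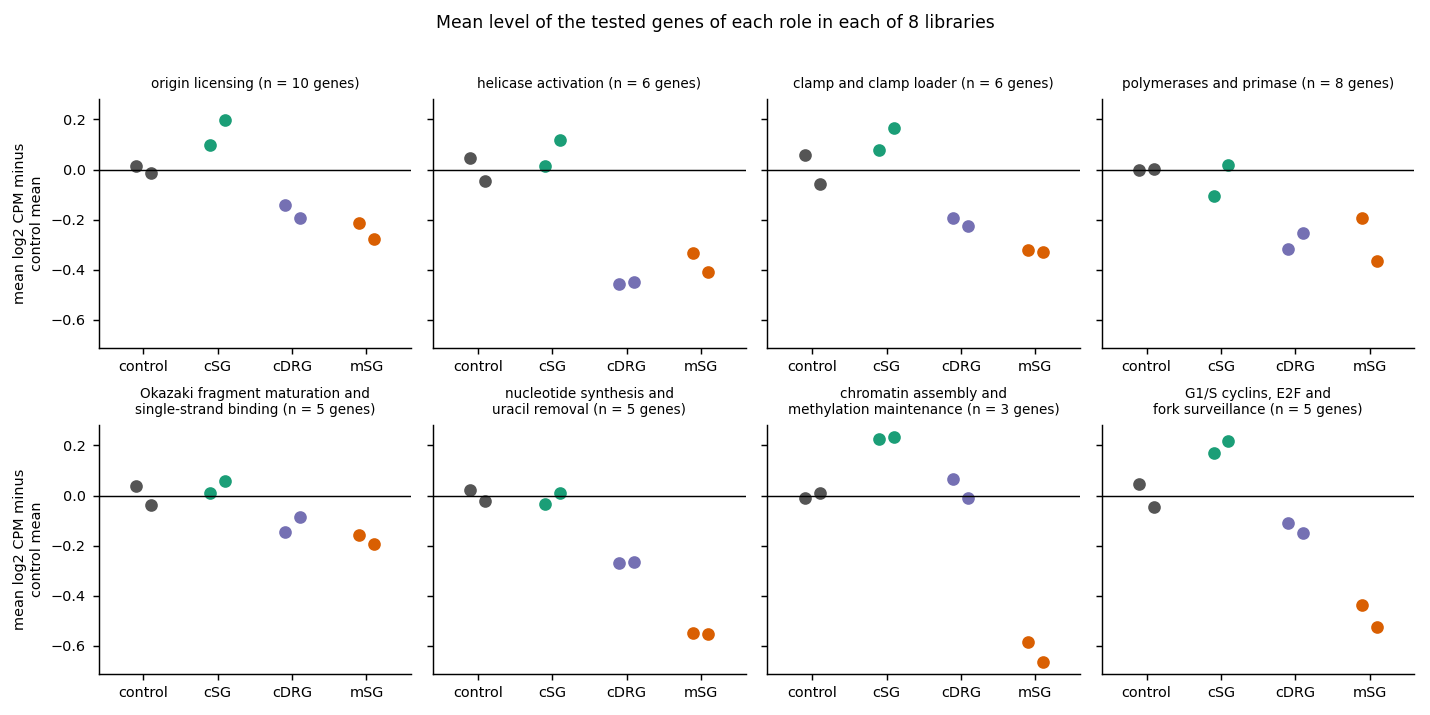
Mean log2 CPM of the tested genes of each role in each of the 8 libraries, drawn as the difference from the mean of the control libraries. For nucleotide synthesis and uracil removal the control libraries stand at 6.43 and 6.38 and the E15.5-mSGcm libraries at 5.86 and 5.85 on the undifferenced scale, and for helicase activation the E8-cDRGcm libraries at 5.02 and 5.03 against 5.52 and 5.43 in control.

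Averaged over the 48 tested members, the level was 5.86 and 5.81 log2 CPM in control medium, 5.88 and 5.96 in E8-cSGcm, 5.62 and 5.62 in E8-cDRGcm, and 5.53 and 5.45 in E15.5-mSGcm. The 2 libraries of each group stayed closer to each other than to any library of another group except between control and E8-cSGcm. The means by role placed E8-cDRGcm lower than E15.5-mSGcm for helicase activation, at 5.02 and 5.03 against 5.15 and 5.07. For chromatin genes the order was turned, with 5.53 and 5.45 in E8-cDRGcm, close to 5.45 and 5.47 in control, and 4.88 and 4.80 in E15.5-mSGcm. These means were chosen as descriptions and carry no test.

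The direct comparison of the media asked where their effects on the members differed. Between E8-cDRGcm and E8-cSGcm, 7 of 48 members were lower in E8-cDRGcm and 0 higher, beside 4.87% and 2.62% of all tested genes, with a median of -0.33 beside 0.00 for all genes. At an unadjusted p under 0.05, 33 members were lower and 1 higher, with no count over all genes. DESeq2 called 6 members lower and 0 higher, beside 697 of 32570 genes called either way, 207 of them higher. GINS4 (-1.10 ± 0.093 (SE; adjusted p = 1.11e-11, edgeR)) and CDC45 (-0.74 ± 0.095 (SE; adjusted p = 1.56e-07, edgeR)) differed most, followed by GINS2, MCM3, MCM4, PRIM1 and TK1 at -0.71 to -0.59. Without E8-cSGcm replicate 2, 3 members were called lower, since CDC45, MCM4, PRIM1 and TK1 came to -0.58, -0.52, -0.48 and -0.56. MCM4 also missed the criterion without E8-cDRGcm replicate 2 (-0.57) and with thinning (-0.56). PRIM1 and TK1 missed it without E8-cDRGcm replicate 1 (-0.53 and -0.57). After the GC content and length correction, 4 members were called lower, since MCM3, PRIM1 and TK1 came to -0.56, -0.55 and -0.51. TK1 was also not called with RLE size factors or by DESeq2 (-0.58 with both).

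Between E15.5-mSGcm and E8-cSGcm, 17 members were lower in E15.5-mSGcm, beside 12.1% of all genes, and 1 was higher, beside 10.2%, with a median of -0.45 beside -0.01. CHAF1B differed most, -1.43 ± 0.13 (SE; adjusted p = 5.61e-12, edgeR), which is 2.70-fold, followed by CDC45, -1.08 ± 0.11 (SE; adjusted p = 1.83e-10, edgeR), CDT1 at -1.08 and RFC5 at -1.06. RRM2 dropped by 50.0%, and DTL, CCNE1, UNG, CCNE2, POLD3, RFC4, GINS4, TK1, UHRF1, GINS2, MCM10 and MCM6 were called lower as well, at log2 differences of -0.94 to -0.59. The member called higher, GINS3, stood at the fold criterion, 0.59 ± 0.12 (SE; adjusted p = 8.56e-05, edgeR), and was not called without control replicate 1 or 2 (0.58 and 0.58), E8-cSGcm replicate 1 (0.48), E8-cDRGcm replicate 2 (0.58) or E15.5-mSGcm replicate 2 (0.53). MCM6 stood there too, at -0.59 ± 0.053 (SE; adjusted p = 9.96e-12, edgeR), and had -0.57 with RLE size factors, under the criterion. It also missed the criterion without E8-cSGcm replicate 2 (-0.55), E8-cDRGcm replicate 1 (-0.58) or E15.5-mSGcm replicate 2 (-0.55), and MCM10, at -0.62 ± 0.064 (SE; adjusted p = 2.85e-10, edgeR), missed it without E8-cSGcm replicate 2 (-0.58). After the GC content and length correction TK1 came to -0.38, UHRF1 to -0.53 and GINS3 to 0.53, and none of these 3 was then called.

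Between E15.5-mSGcm and E8-cDRGcm the members differed in both directions around a median near 0. Here 7 of 48 members (14.6%) were lower in E15.5-mSGcm and 2 (4.17%) higher, beside 13.1% of all tested genes called lower and 13.1% higher. The share lower was thus close to that of all genes, and the share higher was below it. The median was -0.09 beside 0.00. CHAF1B differed most, -1.45 ± 0.13 (SE; adjusted p = 2.48e-12, edgeR), which is 2.72-fold, then CDT1, -1.04 ± 0.13 (SE; adjusted p = 2.15e-08, edgeR), RRM2, -0.99 ± 0.085 (SE; adjusted p = 1.66e-12, edgeR), POLD3 at -0.98 and DTL at -0.89. RFC4 and CCNE2 were at -0.62 and -0.61, and neither was called without E15.5-mSGcm replicate 2 (-0.58 and -0.58), nor CCNE2 without E8-cDRGcm replicate 2 (-0.58). The members higher in E15.5-mSGcm were GINS3, 0.93 ± 0.12 (SE; adjusted p = 5.38e-08, edgeR), and MCM3, 0.62 ± 0.057 (SE; adjusted p = 9.86e-12, edgeR). POLA1 had 0.55, PCNA 0.44 and GINS4 0.39, on the same side but under the fold criterion. MCM3 had 0.56 without E8-cDRGcm replicate 2 and was then not called.

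**Figure D4:**
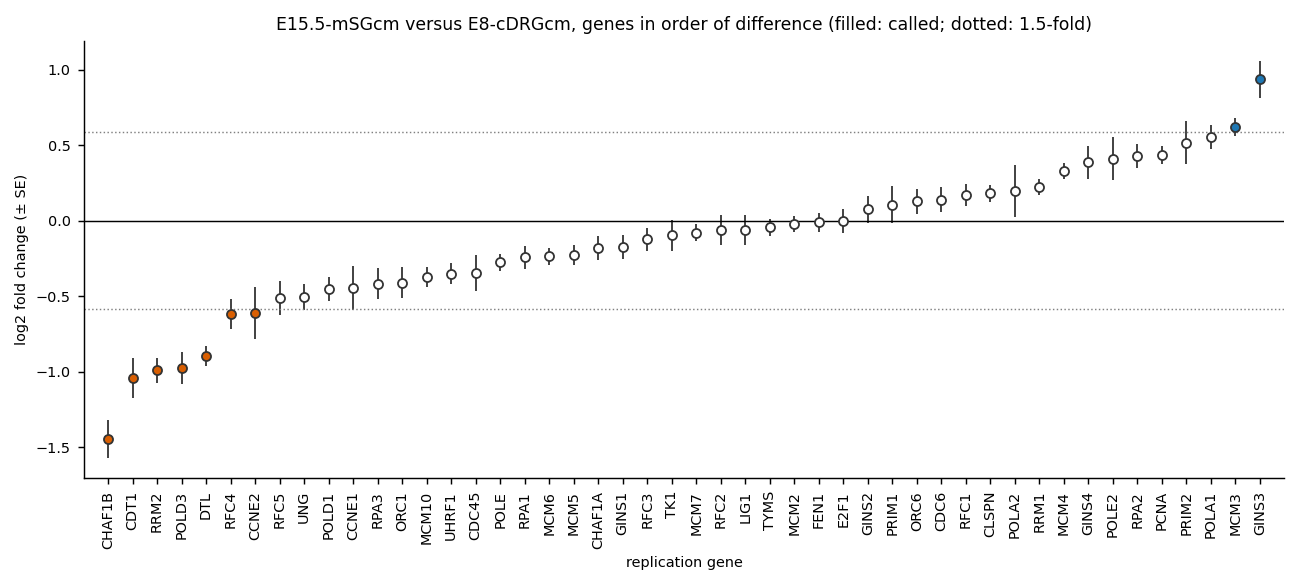
Log2 fold change with its SE of the 48 tested members between E15.5-mSGcm and E8-cDRGcm, in order of size, with filled points for those that passed the test. The values run from -1.45 for CHAF1B to 0.93 for GINS3, with 7 filled points on the low side and 2 on the high side.

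Genes of the same processes outside the 49 were read from lists of the pathway. Among 26 other origin and replisome genes, all tested, 2 fell and 1 rose in E15.5-mSGcm, 1 fell and 1 rose in E8-cDRGcm and 0 were called in E8-cSGcm. The shares lower were 7.69% in E15.5-mSGcm and 3.85% in E8-cDRGcm, beside 7.27% and 10.9% of all tested genes. The shares higher were 3.85% in both, beside 6.65% and 9.81%. POLD2, a further subunit of polymerase delta, was at 71.7 and 70.9 CPM in control medium, 75.3 and 78.3 in E8-cSGcm, 67.5 and 71.3 in E8-cDRGcm, and 34.7 and 29.9 in E15.5-mSGcm and fell in E15.5-mSGcm, -1.15 ± 0.080 (SE; adjusted p = 2.36e-14, edgeR). DONSON, needed for helicase activation, was higher in E8-cDRGcm, 0.71 ± 0.13 (SE; adjusted p = 1.11e-05, edgeR). Of 16 genes of the E2F and RB pathway, 2 fell in E15.5-mSGcm (12.5%, beside 7.27% of all tested genes) and 1 rose in E8-cDRGcm (6.25%, beside 9.81%). E2F8, an atypical E2F that represses transcription, was at 7.80 and 8.88 CPM in control medium, 8.42 and 12.1 in E8-cSGcm, 12.7 and 13.0 in E8-cDRGcm, and 3.08 and 4.34 in E15.5-mSGcm. It fell in E15.5-mSGcm, -1.16 ± 0.22 (SE; adjusted p = 6.59e-05, edgeR), and rose in E8-cDRGcm, 0.62 ± 0.15 (SE; adjusted p = 0.000952, edgeR), while CCNA2, the S and G2 cyclin, fell in E15.5-mSGcm, -0.60 ± 0.059 (SE; adjusted p = 1.77e-10, edgeR).

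Of 12 tested genes among 13 that supply nucleotides, 4 fell in E8-cDRGcm (33.3%, beside 10.9% of all tested genes) and 1 in E15.5-mSGcm (8.33%, beside 7.27%). UMPS, which completes the synthesis of uridine monophosphate, was at 74.5 and 78.8 CPM in control medium, 51.3 and 54.0 in E8-cSGcm, 43.5 and 43.1 in E8-cDRGcm, and 76.6 and 80.0 in E15.5-mSGcm. Its E8-cDRGcm libraries were the lowest, and control and E15.5-mSGcm overlapped. UMPS fell in E8-cDRGcm, -0.82 ± 0.068 (SE; adjusted p = 9.12e-13, edgeR), and had 0.03 in E15.5-mSGcm. In E8-cSGcm its log2 fold change was -0.54, short of the fold a call required. Of 13 checkpoint and fork repair genes, 2 were lower in 1 medium each: EXO1, an exonuclease, in E15.5-mSGcm, -0.77 ± 0.067 (SE; adjusted p = 6.32e-12, edgeR), and FANCD2, of the crosslink repair pathway, in E8-cDRGcm, -0.64 ± 0.079 (SE; adjusted p = 1.21e-08, edgeR). Each is 7.69% of the list, beside 7.27% and 10.9% of all tested genes called lower in these media in turn. None of 6 other S-phase chromatin genes (ASF1A, ASF1B, DNMT1, HELLS, NASP and PCLAF) was called in any medium, with medians of 0.06, -0.03 and -0.10.

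Genes of the G1 step that precedes cyclin E were called in each medium. CCND1, cyclin D1, which acts on RB before cyclin E, was at 1404 and 1430.0 CPM in control medium, 564 and 573 in E8-cSGcm, 357 and 343 in E8-cDRGcm, and 982 and 919 in E15.5-mSGcm. It fell in E8-cSGcm, -1.32 ± 0.048 (SE; adjusted p = 2.26e-22, edgeR), and in E8-cDRGcm, -2.02 ± 0.050 (SE; adjusted p = 2.73e-28, edgeR), and had -0.58 ± 0.048 (SE; adjusted p = 1.96e-12, edgeR) in E15.5-mSGcm, just under the fold criterion. CDKN1A, the inhibitor p21, was at 2.22 and 1.31 CPM in control medium, 2.65 and 3.01 in E8-cSGcm, 4.34 and 4.10 in E8-cDRGcm, and 5.64 and 5.94 in E15.5-mSGcm and rose in E8-cDRGcm, 1.28 ± 0.26 (SE; adjusted p = 0.000103, edgeR), and E15.5-mSGcm, 1.73 ± 0.27 (SE; adjusted p = 2.46e-06, edgeR). Of the 9 tested genes among 12 D-type cyclins, their kinases and CDK inhibitors, 1 rose and 1 fell in E8-cSGcm, 2 rose and 1 fell in E8-cDRGcm, and 1 rose in E15.5-mSGcm. A single call is 11.1% of the 9, and 2 calls are 22.2%. Of all tested genes, 4.73% rose and 3.86% fell in E8-cSGcm, 9.81% and 10.9% in E8-cDRGcm, and 6.65% and 7.27% in E15.5-mSGcm.

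Of the mitosis and G2/M genes, which act once replication is complete, some rose in E8-cDRGcm and some fell in E15.5-mSGcm. Of 21 tested genes among 22, 8 rose (38.1%, beside 9.81% of all tested genes) and 0 fell in E8-cDRGcm. The median was 0.49 beside -0.24 for the replication genes. In E15.5-mSGcm 0 rose and 3 fell (14.3%, beside 7.27% of all tested genes), with a median of -0.38 beside -0.36. In E8-cSGcm none was called, with a median of 0.18 beside 0.09. MKI67, the proliferation antigen Ki-67, was at 538 and 535 CPM in control medium, 798 and 821 in E8-cSGcm, 1244 and 850.3 in E8-cDRGcm, and 389.7 and 475 in E15.5-mSGcm. It rose in E8-cDRGcm, 0.97 ± 0.21 (SE; adjusted p = 0.0203, edgeR), where its libraries differed widely, and had -0.31 in E15.5-mSGcm. TPX2, a spindle assembly factor, was at 289 and 278 CPM in control medium, 350.1 and 356 in E8-cSGcm, 525 and 524 in E8-cDRGcm, and 176 and 186 in E15.5-mSGcm, and no group overlapped another. It rose in E8-cDRGcm, 0.89 ± 0.048 (SE; adjusted p = 5.64e-18, edgeR), and fell in E15.5-mSGcm, -0.64 ± 0.051 (SE; adjusted p = 7.89e-13, edgeR). Between E15.5-mSGcm and E8-cDRGcm, 15 of the 21 (71.4%, beside 13.1% of all tested genes) were lower in E15.5-mSGcm and 0 higher. The median was -0.86 beside -0.09 for the replication genes. Whether the lists differed from each other was not tested.

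**Figure D5:**
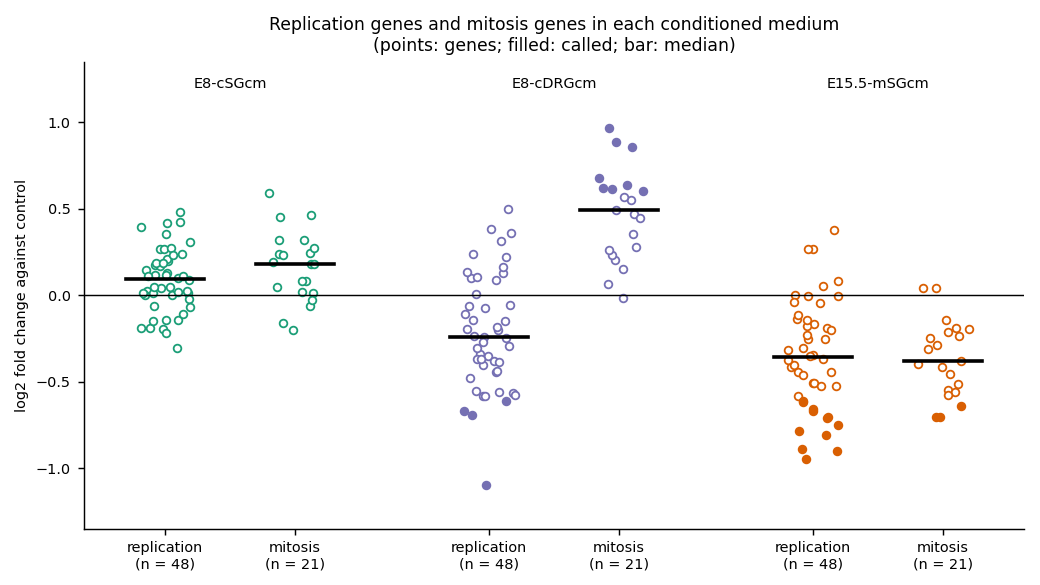
Log2 fold change against control medium of each tested replication gene (48) and mitosis gene (21) in the 3 conditioned media, with the median as a bar and filled points for genes that passed the test. In E8-cDRGcm the medians are -0.24 and 0.49, and in E15.5-mSGcm they are -0.36 and -0.38.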

How the data were processed

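Whole RNA of 8 libraries of IGR-N91 aggregates, 2 in each of 4 groups, was analysed. The authors made the counts and deposited them without normalization, as whole numbers of reads per Ensembl gene. The submitters' processing notes name bcl2fastq 2.17.1.14, cutadapt 1.9.1, TopHat2 2.1.0 and HTSeq 0.11.3. They give the human build as hg38, whereas the paper's methods give hg19. The counts carry no coordinates, so no position depends on this. Libraries were made with a stranded kit from 50 ng of RNA and read as single reads of 75 bp, and the strand setting of the counting is not given in the sources used here, so reads of genes that overlap a member on the other strand may be counted in it. Each library was matched to its group by its own label.

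Symbols and exonic lengths came from GENCODE on GRCh37, which matched 58611 of 60676 rows. Normalization was by TMM, and genes were tested in R 4.3.3 with edgeR 4.0.16 (a robust quasi-likelihood fit of 1 model to the 8 libraries, after filterByExpr by group, Benjamini-Hochberg over 16680 genes). Calls needed an adjusted p under 0.05 together with a change of at least 1.5-fold. CPM are scaled by TMM, RPKM are these per kilobase of exonic length (all annotated exons of a gene merged), and library means used log2 CPM with a prior count of 2. The floor of 3 counts allows for counting error alone, as the reads carry no molecular identifiers and may be copies of 1 molecule. The chi-square per gene between replicate libraries was 1.87 to 3.95, above the level near 1 that counting error gives.

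Members and lists were chosen with earlier results of these data known, so lists carry counts and medians and no test. Values were given in full for the member with the most counts in each role, the 6 called members with the largest changes against control and the 2 with the largest differences between media, and for the 2 largest called changes of each other list, except 1 gene that is not reported here. Further members were named to account for all 49, and those shown in full beyond this rule (MCM3, POLA1, POLD3, RFC5, GINS3) were chosen after their values were seen. Alternatives were DESeq2 1.42.0, RLE size factors, other filters, only the libraries compared, adjusted p alone, thinning, the replicate number as a block and each library left out in turn. Correcting each library for GC content and length was an alternative added after the data were seen. The steps were tested on simulated data. Figures were drawn with matplotlib 3.10.9.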

Additional observations from a re-analysis of the deposited data

Results flagged for a closer look

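Some members lay on opposite sides of control in different media. No member was called in opposite directions against control with the fold criterion. A looser criterion, chosen after these values were seen, asked for an adjusted p under 0.05 against control in opposite directions in 2 media and for a called difference between them (edgeR quasi-likelihood test). The share of all tested genes that met it was not counted, so the pattern is not shown to be particular to these members. CHAF1B met it in both pairs of media, with log2 differences of -1.45 between E15.5-mSGcm and E8-cDRGcm and -1.43 between E15.5-mSGcm and E8-cSGcm. CDT1 had -1.04 and -1.08 in these pairs, and DTL, the gene whose product targets CDT1 for degradation, had -0.89 and -0.94. Between E15.5-mSGcm and E8-cDRGcm, POLD3 also met it at -0.98, and GINS3 did so in the other direction at 0.93. Between E15.5-mSGcm and E8-cSGcm, RFC5 met it at -1.06, RFC4 at -0.80, MCM10 at -0.62 and MCM6 at -0.59, and the calls of MCM10 and MCM6 were lost under some alternatives (above). All but GINS3 were lower in E15.5-mSGcm.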

How the results depend on the processing

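Of 50 member calls in the 6 comparisons, 32 passed under all 17 alternatives for single genes, and no value changed sign while called. The replicate numbers did not pair the libraries (correlations of deviations from -0.0437 to 0.0420), and with the replicate block the counts called lower were 4 in E8-cDRGcm and 12 in E15.5-mSGcm against control, with 288 of 288 member calls as without it. With adjusted p alone, the numbers of members higher and lower were 14 and 4 in E8-cSGcm. They were 7 and 29 in E8-cDRGcm and 3 and 31 in E15.5-mSGcm. Of 16680 tested genes they were 2679 and 2534, 4143 and 4118, and 2975 and 3330 in these media in turn. Members had 1 and 32 for E8-cDRGcm against E8-cSGcm, beside 2456 and 2581 of all tested genes. They had 3 and 35 for E15.5-mSGcm against E8-cSGcm, beside 3979 and 4325. For E15.5-mSGcm against E8-cDRGcm they had 11 and 20, beside 4297 and 4470. Thinning gave 7 lower in E8-cDRGcm. A filter at 1 count in total moved the E15.5-mSGcm medians to -0.42 against control, -0.52 against E8-cSGcm and -0.15 against E8-cDRGcm, with 0 and 1 members higher in the last 2 comparisons. The GC content and length correction, with and without the block, gave 4 members lower in E8-cDRGcm against E8-cSGcm, 0 higher in E15.5-mSGcm against E8-cSGcm, and a median there of -0.36.

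Leaving out each library in turn, the number lower was 4 to 9 in E8-cDRGcm, 11 to 15 in E15.5-mSGcm, 3 to 9 for E8-cDRGcm against E8-cSGcm, 15 to 20 for E15.5-mSGcm against E8-cSGcm and 5 to 8 for E15.5-mSGcm against E8-cDRGcm. The number higher was 0 to 1 and 2 to 3 in the last 2. The medians ran from 0.025 to 0.12 in E8-cSGcm, -0.41 to -0.30 in E15.5-mSGcm, -0.35 to -0.25 for E8-cDRGcm against E8-cSGcm and -0.52 to -0.42 for E15.5-mSGcm against E8-cSGcm. A group left with 1 library was assumed to vary like the others. The counts of these fits are given without the share over all genes, so they do not show whether members stood out. Over all genes DESeq2 called 851 against 1433 with edgeR in E8-cSGcm and 697 against 1249 for E8-cDRGcm against E8-cSGcm. Apart from the changes that these settings make by construction, the causes were not tested. With 2 libraries per group, changes near 1.5-fold were the least certain.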
